A study of Mus musculus with 12 samples.

Results

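The genes described here are 10 genes of growth plate cartilage other than collagens: Acan, Comp, Matn1, Matn3, Sox9, Ihh, Pth1r, Chad, Cnmd and Prg4. They were given by name, as mouse symbols, and were matched to the Ensembl identifiers of the count table, which held 37620 genes. All 10 were found, each with 1 identifier. Their levels were compared between young and aged mice of both sexes, in RNA from cells that were purified as bone endothelial cells (BECs).

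The growth plate is the cartilage at the end of a long bone, in which chondrocytes divide, enlarge and lay down a matrix that is then invaded by blood vessels and replaced by bone. The vessels next to it are the endomucin-rich capillaries of the metaphysis. Sox9 is the transcription factor that chondrocytes need to form and to make their matrix. Ihh, a secreted hedgehog ligand made by chondrocytes that are about to enlarge, and parathyroid hormone-related protein, which acts through the receptor Pth1r, form a feedback loop that sets how long chondrocytes keep dividing. Pth1r is also well known in osteoblasts. Acan encodes aggrecan, the large proteoglycan that holds water in cartilage. Matn1 and Matn3 encode matrilins, adaptor proteins of the matrix, Comp encodes cartilage oligomeric matrix protein, and Chad encodes chondroadherin, a leucine-rich repeat protein that binds collagen and cells. Cnmd encodes chondromodulin, an inhibitor of angiogenesis, and Prg4 encodes lubricin, the lubricating glycoprotein of the joint surface and synovium. In mice the growth plate is active in young animals and slows with age.

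The data were 12 RNA-seq libraries of BECs from the tibia of c57/Bl6 mice, 3 from females and 3 from males at 2 weeks of age, and 3 from females and 3 from males at 65 weeks. The labels name no transgene, deletion or treatment in any group, and the study used endomucin to pick the cells. The 3 libraries of each group were those with the best RNA quality, and nothing in the labels ties a library to 1 animal, so the p-values measure the spread between these libraries, which may be partly technical. The study asked how male and female BECs differ and how this changes with age, and it also names a set from 12-week mice, which was not analysed here.

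Library totals were 35012947 to 44569600 counts at 2 weeks and 26044743 to 34088694 counts at 65 weeks. The cell label was checked against 22 endothelial markers, which summed to between 4532 and 8212 CPM (a gene's counts per 1000000 counts of its library) at 2 weeks and to between 399 and 549 CPM at 65 weeks. RNA of blood cells was present too, with 8 erythroid markers at 30470 to 57290 CPM over the 12 libraries. The sums of 10 neutrophil markers were 3975 to 6238 CPM at 2 weeks and 11840 to 25850 CPM at 65 weeks. Those of 8 B cell markers were 496 to 726 CPM and 7149 to 18790 CPM. Emcn itself, the gene of the protein used for purification, had 4403 to 9348 counts at 2 weeks and 82 to 238 at 65 weeks. Both endothelial RNA and cartilage RNA therefore took a smaller share of the aged libraries, and in bulk RNA fewer cells of a type and less RNA per cell cannot be told apart. The cartilage label was checked with Col2a1, the main collagen of cartilage, which stood at 66.2 to 119 CPM at 2 weeks and at 1.77 to 5.12 CPM at 65 weeks. Male 65-week replicate 3 stood apart: leaving it out raised the number of genes called between the sexes at 65 weeks from 6 to 830. Values that rest on that group are therefore given with and without it where the call or the size depends on it.

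RefSeq promoter sequences on GRCm38.p6, each with 250 bases before and 50 bases after a transcription start, were available for 7 of the 10 genes and 9 of their starts. The promoters of 5 genes that fell together with age in females are shown here, to let their sequences be set side by side. They lie at chr7:79052976-79053275 for Acan, chr4:130944135-130944434 for Matn1 and chr12:8947679-8947978 for Matn3, all on the plus strand. Chad lies at chr11:94564797-94565096 on the plus strand, and the shown start of Pth1r, 1 of its 3, at chr9:110742561-110742860 on the minus strand. Capitals mark the 3 motifs searched on both strands: GGGCGG, the GC box bound by Sp factors, ACAANG, a short core of SOX binding sites, and TATAAA, the TATA box.
Acan: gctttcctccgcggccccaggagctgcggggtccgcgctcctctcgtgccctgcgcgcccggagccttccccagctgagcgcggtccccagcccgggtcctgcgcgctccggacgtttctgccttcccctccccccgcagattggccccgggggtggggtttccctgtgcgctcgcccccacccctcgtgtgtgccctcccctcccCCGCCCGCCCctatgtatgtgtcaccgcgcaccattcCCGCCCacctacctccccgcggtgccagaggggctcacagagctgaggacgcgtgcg
Matn1: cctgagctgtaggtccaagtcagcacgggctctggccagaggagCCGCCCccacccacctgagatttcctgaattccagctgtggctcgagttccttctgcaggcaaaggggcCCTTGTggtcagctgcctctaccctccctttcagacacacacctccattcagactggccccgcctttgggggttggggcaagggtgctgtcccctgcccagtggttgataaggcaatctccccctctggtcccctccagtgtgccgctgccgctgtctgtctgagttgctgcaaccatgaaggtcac
Matn3: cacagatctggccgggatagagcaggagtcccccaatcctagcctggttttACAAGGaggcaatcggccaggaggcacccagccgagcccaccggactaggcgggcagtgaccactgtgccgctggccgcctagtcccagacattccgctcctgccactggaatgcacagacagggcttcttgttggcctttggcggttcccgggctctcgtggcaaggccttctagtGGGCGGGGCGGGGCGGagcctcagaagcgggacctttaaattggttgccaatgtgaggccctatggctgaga
Pth1r: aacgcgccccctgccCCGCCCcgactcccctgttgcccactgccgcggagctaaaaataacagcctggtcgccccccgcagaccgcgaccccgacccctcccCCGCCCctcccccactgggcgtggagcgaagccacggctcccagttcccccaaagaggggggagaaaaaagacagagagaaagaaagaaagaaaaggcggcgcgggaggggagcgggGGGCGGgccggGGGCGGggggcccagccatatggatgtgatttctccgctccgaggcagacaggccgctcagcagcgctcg
Chad: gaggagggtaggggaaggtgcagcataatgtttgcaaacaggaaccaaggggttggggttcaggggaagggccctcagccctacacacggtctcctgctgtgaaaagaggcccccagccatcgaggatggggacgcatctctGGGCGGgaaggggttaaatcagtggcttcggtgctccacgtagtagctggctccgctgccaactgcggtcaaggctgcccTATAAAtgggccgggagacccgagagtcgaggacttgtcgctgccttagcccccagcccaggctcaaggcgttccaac

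The GC box was in 7 of the 9 promoters, of which 3 are starts of Pth1r, against 35.7% of 32851 promoters of the same length. All 9 were richer in G and C, at 54.3% to 74.0% of bases, than the median promoter at 52.7%. The part of this base content in the GC box matches was not tested. The SOX core was in 4 of the 9, against 41.2% of all, and these were the promoter of Matn1, that of Matn3 and 2 starts of Pth1r that are not shown. The Acan promoter held 3 GC boxes, of which 2 overlapped, and no SOX core, and 74.0% of its bases were G or C, against a median of 52.7% over all promoters. The 3 GC boxes of Matn3 overlapped each other and lay within 22 bases before the start. The TATA box was found only for Chad, 28 bases before the start, and in 13.6% of all promoters. The Cnmd promoter held none of the 3 motifs. A match is a description of letters, and sites further away were not searched.

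Among the regulators, Sox9 (ENSMUSG00000000567, chr11:112673009-112678586 on GRCm39) was present in all 6 young libraries and near 0 in the aged ones. It had 70, 77 and 93 counts in the female 2-week libraries and 96, 73 and 77 in the male ones. At 65 weeks it had 0, 0 and 5 counts in females and 6, 0 and 0 in males. A count of 0 in an aged library allows a level of up to 0.0880 to 0.115 CPM, depending on its depth. The groups did not overlap in either sex. Over pooled counts the young level was 40.3 times the aged level in females (95% exact binomial interval 17.0 to 125, for counting error only) and 26.9 times in males (12.2 to 73.9). Sox9 fell in each sex, with log2 changes of -5.10 in females (SE 0.773, edgeR adjusted p = 0.000728) and -4.56 in males (SE 0.828, edgeR adjusted p = 0.00243). The size rested on single libraries: it was -9.19 without female 65-week replicate 3 and -9.12 without male 65-week replicate 1, the only libraries of their groups with a count.

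Pth1r (ENSMUSG00000032492, chr9:110550767-110576259) had the highest level per length of the 10 genes at 2 weeks. Its CPM was 39.1, 49.1 and 36.9 in the female and 49.4, 43.3 and 49.1 in the male 2-week libraries. At 65 weeks it was 1.69, 2.64 and 3.31 CPM in females and 3.22, 2.48 and 3.61 CPM in males, so that the highest aged library was far below the lowest young one. It fell in each sex, with log2 changes of -3.89 in females (SE 0.225, edgeR adjusted p = 5.7e-06) and -3.81 in males (SE 0.157, edgeR adjusted p = 1.7e-06). Over pooled counts this was 16.3-fold (interval 14.3 to 18.6) and 15.2-fold (13.4 to 17.4). Osteoblasts also express Pth1r, and 14 of 14 osteoblast markers fell with it in each sex, from summed levels of 7129 CPM or more in each young library to between 164 and 350 CPM; their part in the Pth1r change was not tested.

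Ihh (ENSMUSG00000006538, chr1:74984474-74990837) was the scarcest of the regulators. It had 10, 11 and 7 counts in the female and 9, 6 and 11 in the male 2-week libraries, against 4, 0 and 4 in females and 2, 5 and 2 in males at 65 weeks. The CPM of the ages did not overlap in females and did overlap in males. Ihh was too low for the test across all genes. Without the filter on low counts its change was -1.39 in females (SE 0.946, edgeR adjusted p = 0.277) and -0.85 in males (SE 0.782, edgeR adjusted p = 0.416), and neither was called. Over pooled counts the young level was 2.94 times the aged level in females (95% exact binomial interval 1.31 to 7.47, for counting error only) and 1.89 times in males (0.859 to 4.59).

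**Figure D1:**
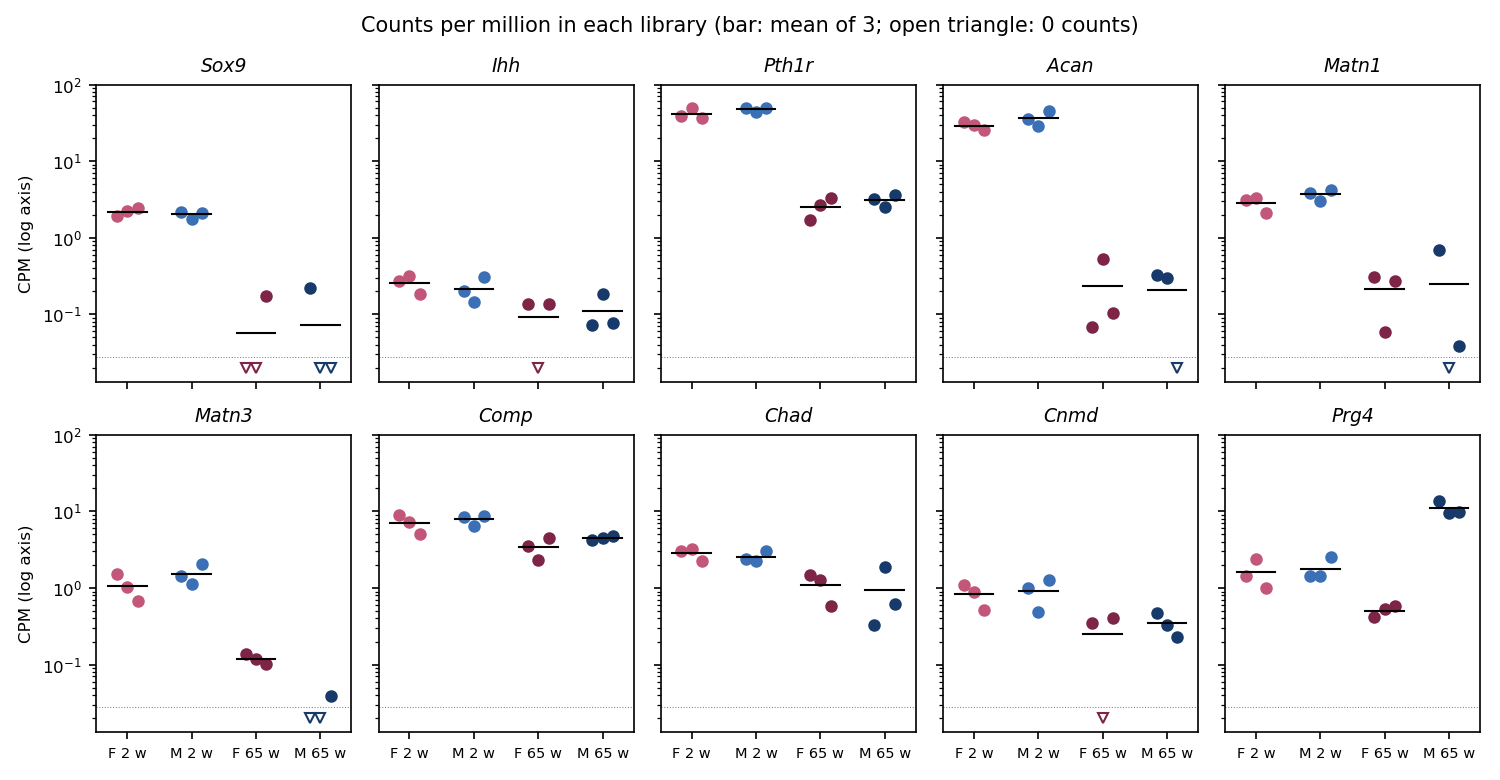
CPM of the 10 genes in each of the 12 libraries on a log axis, with 3 points for each group of sex and age (F, females; M, males; w, weeks), a bar at the group's mean and open triangles at the foot for libraries with 0 counts. Pth1r and Acan stand at 25.2 CPM and above in the young libraries and at 3.61 CPM and below in the aged ones, while Prg4 is at 9.59 CPM and above only in the aged male libraries.

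Aggrecan transcripts fell steeply in each sex. Acan (ENSMUSG00000030607, chr7:78702964-78764847) had 1182, 1042 and 964 counts in the female and 1563, 1199 and 1661 in the male 2-week libraries. At 65 weeks it had 2, 18 and 3 counts in females and 9, 8 and 0 in males. Mean levels were 29.0 ± 3.56 CPM (SD, n = 3) in young and 0.233 ± 0.256 CPM in aged females, and 36.5 ± 8.60 CPM in young and 0.209 ± 0.181 CPM in aged males. Acan fell in each sex, with log2 changes of -6.72 in females (SE 0.417, edgeR adjusted p = 7.8e-06) and -7.29 in males (SE 0.510, edgeR adjusted p = 1.9e-05). Over pooled counts the young level was 116 times the aged one in females (interval 77.5 to 184) and 170 times in males (106 to 293). For Col2a1, which chondrocytes also make, the same ratios were 30.1 (26.8 to 33.9) and 41.4 (35.9 to 48.0). For Emcn they were 28.6 (26.1 to 31.4) and 34.8 (31.7 to 38.2). The differences between these genes were not tested across libraries, and neither was the cell source of their RNA. In females 18 of the 23 aged counts came from replicate 2, and the change was -8.22 without it; in males it was -6.72 without replicate 3, the library with 0 counts, and -7.80 without replicate 1. With all libraries in, Acan had the lowest value of the 9 genes tested in each sex. The order depended on single libraries, since Sox9 was lower without female 65-week replicate 3 or male 65-week replicate 1 and Matn3 without male 65-week replicate 3, and the interval of Acan overlapped that of Sox9 in females and that of Matn3 in males.

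The matrilins were lower at 65 weeks in both sexes too. Matn1 (ENSMUSG00000040533, chr4:130670216-130682787) had 80 to 115 counts in young females and 127 to 170 in young males, against 9, 2 and 8 in aged females and 19, 0 and 1 in aged males. It fell in each sex, with log2 changes of -3.60 in females (SE 0.490, edgeR adjusted p = 0.000404) and -3.74 in males (SE 0.891, edgeR adjusted p = 0.00869); without male 65-week replicate 1, which held 19 of the 20 counts, the male value was -7.28. Matn3 (ENSMUSG00000020583, chr12:8997929-9022028) had 56, 36 and 26 counts in young females and 63, 47 and 75 in young males. At 65 weeks it had 4, 4 and 3 counts in females and 0, 0 and 1 in males, so that its aged female and male libraries did not overlap. Matn3 fell in each sex, with log2 changes of -3.00 in females (SE 0.492, edgeR adjusted p = 0.00109) and -6.47 in males (SE 0.752, edgeR adjusted p = 0.000251), where the pooled ratio of 121 had an interval of 21.5 to 4810 because it rested on 1 aged count. Without that library, male 65-week replicate 3, the male value was -8.72. The difference between the sexes in this change was -3.46 (SE 1.06), with an unadjusted edgeR p of 0.00692 and an adjusted p of 0.24, and was not called.

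Comp, Chad and Cnmd changed much less than Acan or were not called. Comp (ENSMUSG00000031849, chr8:70826192-70834716) was at 9.04, 7.25 and 5.01 CPM in young and 3.55, 2.32 and 4.50 CPM in aged females, and at 8.46, 6.44 and 8.70 CPM in young and 4.21, 4.52 and 4.80 CPM in aged males. The ages did not overlap in either sex, but the gap was narrow in females, between 5.01 and 4.50 CPM. Comp fell in each sex, with log2 changes of -0.91 in females (SE 0.296, edgeR adjusted p = 0.0287) and -0.69 in males (SE 0.181, edgeR adjusted p = 0.0135). The female call was lost in 4 of 6 fits that each left out 1 library, with edgeR adjusted p = 0.105 without 2-week replicate 1, 0.0572 without 2-week replicate 2, 0.0574 without 65-week replicate 1 and 0.0752 without 65-week replicate 2. The male call was lost without 2-week replicate 1 (edgeR adjusted p = 0.0656) and without 2-week replicate 3 (0.0605). Comp is also a gene of tendon, and of 7 tendon and ligament markers 4 of 5 tested fell in females and 4 of 4 in males, with summed levels of 63.2 to 94.4 CPM at 2 weeks and 7.65 to 17.4 CPM at 65 weeks. The part of tendon cells in the Comp change was not tested.

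Chad (ENSMUSG00000039084, chr11:94455696-94459953) had 111, 114 and 85 counts in young and 43, 43 and 17 in aged females, and 105, 93 and 112 in young and 9, 51 and 16 in aged males. The aged male libraries spread from 0.329 to 1.89 CPM. Chad fell in females, with a log2 change of -1.21 (SE 0.365, edgeR adjusted p = 0.0206). This call was lost without 2-week replicate 1 (edgeR adjusted p = 0.0659), without 2-week replicate 2 (0.0622) and in 1 model of all 12 libraries (0.0554). In males the value was -1.31 (SE 0.566, edgeR adjusted p = 0.0831) and was not called; without 65-week replicate 2, the library with 51 counts, it was -2.33 (edgeR adjusted p = 0.00164), and in the model of all 12 libraries it was called too, at -1.32 (edgeR adjusted p = 0.0425). Cnmd (ENSMUSG00000022025, chr14:79875120-79899615) had 20 to 40 counts in young and 10, 0 and 12 in aged females, and 20 to 46 in young and 6 to 13 in aged males. The CPM of its libraries did not overlap between the ages in either sex. In males this was close to a tie, with 0.4787 CPM in 2-week replicate 2 and 0.4758 CPM in 65-week replicate 1. Neither change was called, with -1.62 in females (SE 0.792, edgeR adjusted p = 0.111) and -1.26 in males (SE 0.508, edgeR adjusted p = 0.0665). Leaving out male 2-week replicate 2 gave a male value of -1.58 (edgeR adjusted p = 0.0462), and scaling by library totals gave -1.39 (edgeR adjusted p = 0.0467).

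Lubricin was the exception. Prg4 (ENSMUSG00000006014, chr1:150325163-150342009) had 52, 84 and 38 counts in the female and 63, 60 and 91 in the male 2-week libraries. At 65 weeks it had 12, 18 and 17 counts in females but 371, 259 and 254 in males. On the CPM scale the mean went from 1.60 ± 0.722 (SD, n = 3) to 0.507 ± 0.0854 in females and from 1.79 ± 0.623 to 11 ± 2.26 in males. All 3 aged female libraries were below, and all 3 aged male libraries above, all 6 young libraries. Prg4 fell in females, with a log2 change of -1.51 (SE 0.409, edgeR adjusted p = 0.0132), and rose in males, with a log2 change of 2.75 (SE 0.294, edgeR adjusted p = 0.00016). Without female 2-week replicate 2, the young female library with the most counts, the female value was -1.16 (edgeR adjusted p = 0.0678). Leaving out male 65-week replicate 3 gave a male value of 2.84 (edgeR adjusted p = 0.00012).

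Counted over the genes, 8 of the 9 tested were lower at 65 weeks in females and none was higher, where 29.5% of all 15120 genes tested were called lower and 30.2% higher. In males 6 of the 9 tested were lower and 1, Prg4, was higher, where 28.5% of 14959 genes were called lower and 27.0% higher. The median change of the 9 genes was -3.00 in females and -3.74 in males, beside 0.01 over all genes tested in each sex. Sox9, Matn3 and several others passed the filter on low counts through their young libraries alone, so these counts and medians are a description and not a test of the 10 genes as a set. Called means an adjusted p under 0.05 over all genes tested. Scaling by library totals in place of TMM moved the median of all genes to -0.13 in females and -0.11 in males and the split of calls to 3668 higher and 5451 lower in females, from 4568 and 4462, and to 3304 higher and 4865 lower in males, from 4041 and 4257; it changed no direction among the 9 genes tested, and the one call it changed was that of Cnmd in males, which it added.

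**Figure D2:**
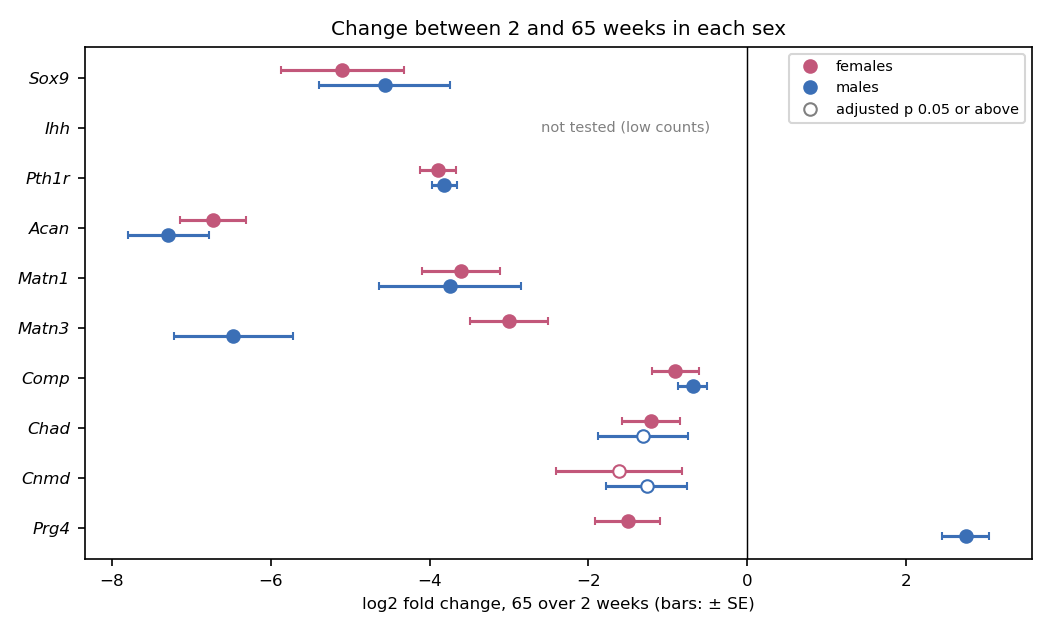
Log2 fold change from 2 to 65 weeks of each gene tested, with its standard error, in females and males; open circles did not pass an adjusted p of 0.05, and Ihh was not tested. Acan lies furthest to the left at -6.72 and -7.29, and Prg4 is the only gene on opposite sides of 0, at -1.51 in females and 2.75 in males.

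The order of the genes per length also changed with age. In RPKM, which is CPM per kilobase of merged exons, the order in young females was Pth1r at 8.73 ± 1.36 (SD, n = 3), Acan at 3.75 ± 0.460, Comp at 2.38 ± 0.676, Chad at 1.52 ± 0.293 and Matn1 at 0.957 ± 0.217. Below these, Sox9, Cnmd, Prg4 and Matn3 lay between 0.522 and 0.299 RPKM, with spreads that overlapped between neighbours, and Ihh was last at 0.0840 ± 0.0220. In young males the first 5 genes stood in the same order, from Pth1r at 9.90 ± 0.722 to Matn1 at 1.25 ± 0.198, and Chad and Matn1 did not differ beyond their spread. In aged females Comp came first at 1.16 ± 0.367 RPKM, followed by Chad at 0.596 ± 0.253 and Pth1r at 0.533 ± 0.171, which overlapped, and Acan was at 0.0301 ± 0.0331. In aged males Prg4 came first at 2.51 ± 0.515 RPKM, then Comp at 1.51 ± 0.0990 and Pth1r at 0.650 ± 0.120. From Matn1 down, the aged levels were under 0.1 RPKM in each sex and their order was within the spread.

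Taken as shares of the summed RPKM of the 10 genes, Pth1r made up 41.1% to 48.9% and Acan 18.0% to 24.0% of the sum in the 6 young libraries. Comp made up 10.6% to 15.2% there and 23.6% to 48.9% in the 6 aged libraries. Prg4 made up 1.43% to 2.57% in young libraries, 3.35% to 5.36% in aged females and 39.7% to 51.9% in aged males. The summed CPM of the 10 genes was 76.2 to 99.4 in young and 7.45 to 10.2 in aged females, and 88.6 to 119 in young and 19.2 to 23.1 in aged males.

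**Figure D3:**
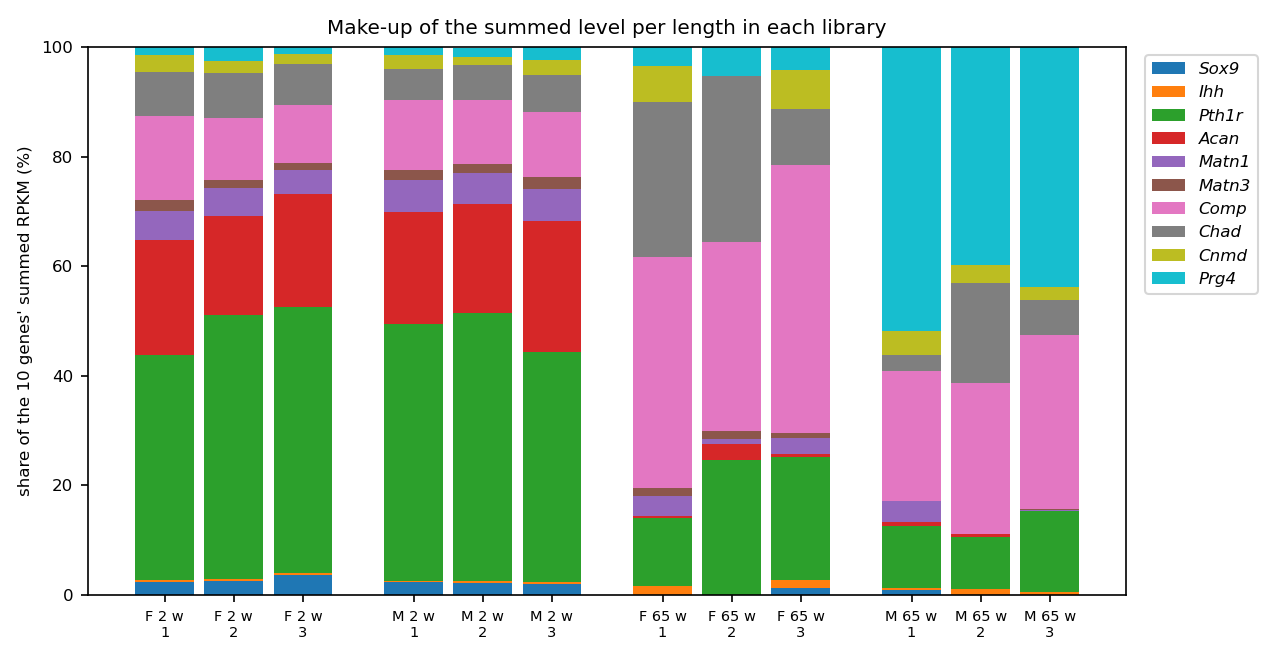
Stacked bars give each gene's share, in percent, of the 10 genes' summed RPKM in every library (F, females; M, males; w, weeks; replicates 1 to 3). Pth1r and Acan fill most of the 6 young bars, Comp has its largest shares in aged females at 34.5% to 48.9%, and Prg4 takes 39.7% or more of each aged male bar.

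Between the sexes at 2 weeks, the libraries of females and males overlapped for each of the 10 genes. The share of all genes whose libraries overlapped was not counted, so this is a description only. All 10 were tested and none was called, where 0.0332% of 15081 genes were. None of the 10 had an unadjusted edgeR p under 0.05, and DESeq2 called none of them either. The male-over-female values ran from -0.27 for Ihh (SE 0.390) to 0.48 for Matn3 (SE 0.329), and for the most abundant, Pth1r, the value was 0.17 (SE 0.104, edgeR adjusted p = 0.396). Acan had the lowest adjusted p, with a value of 0.31 (SE 0.162, edgeR adjusted p = 0.333).

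At 65 weeks, 4 of the 10 genes had enough counts for the test between the sexes, and 1 of them, Prg4, was called, where 0.0420% of 14287 genes were. Prg4 was higher in males, with a log2 difference of 4.42 (SE 0.290, edgeR adjusted p = 0.000706) in 3 of 3 libraries, and by 4.52 without male replicate 3 (edgeR adjusted p = 0.00104). The other 3 were not called, with 0.37 for Comp (SE 0.283, edgeR adjusted p = 0.736), 0.27 for Pth1r (SE 0.327, edgeR adjusted p = 0.843) and -0.24 for Chad (SE 0.690, edgeR adjusted p = 0.943). Of the 6 genes below the filter, Matn3 had the largest value without it, at -2.90 (SE 1.89, edgeR adjusted p = 0.742). The libraries of the sexes did not overlap at 65 weeks for 2 of the 10 genes, Matn3 and Prg4. Here too the share over all genes was not counted.

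The sex difference of Prg4 at 65 weeks exceeded that at 2 weeks, which was 0.14 (SE 0.346), with a log2 difference of 4.26 between them (SE 0.507, edgeR adjusted p = 0.0352). Of the 9 genes tested for this change Prg4 was the only one called, where 0.00635% of 15747 genes were, which is Prg4 alone. That holds for edgeR with all 12 libraries, since DESeq2 called 394 genes for this term and edgeR 750 without male 65-week replicate 3. The Prg4 call was lost in 8 of 12 fits that each left out 1 library, while the value stayed between 3.85 and 4.57. The adjusted p was 0.111 without female 2-week replicate 1, 0.0549 without female 2-week replicate 2, 0.182 and 0.190 without male 2-week replicates 1 and 2, 0.0550, 0.146 and 0.0569 without female 65-week replicates 1, 2 and 3, and 0.142 without male 65-week replicate 1. Lubricin is best known from joint surface cells, so 11 markers of the synovial lining and superficial cartilage were set beside it. Their summed level was 86.9 to 116 CPM in aged females and 82.0 to 104 CPM in aged males, and of the 8 tested between the sexes at 65 weeks edgeR called 0, with 0 at an unadjusted p under 0.05, and DESeq2 called 0. Their median male-over-female value was -0.04 on the log2 scale. Cd55 and Erg had the highest mean CPM of the synovial list. Erg, an endothelial marker too, was at 19.3 CPM in aged females and 20.25 CPM in aged males, so the sum does not belong to joint surface cells alone. Beside Prg4 were also set 9 megakaryocyte markers, which summed to 271 to 439 CPM in aged females and 175 to 463 CPM in aged males. Of these, 0 of 9 were called by edgeR or DESeq2 and 1 had an unadjusted edgeR p under 0.05. The part of either cell type in the Prg4 difference was not tested.

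Other genes of the same cartilage were taken from lists that do not hold the 10 genes. All 8 growth plate collagens fell in each sex, with a median of -5.12 in females and -5.34 in males and summed levels of 446 to 679 CPM in young and 11.3 to 14.5 CPM in aged libraries. Of 13 other cartilage matrix genes tested in females 11 fell and 1 rose, and of 12 tested in males 11 fell and 1 rose. Prelp, a leucine-rich matrix protein, fell in each sex, with log2 changes of -3.37 in females (SE 0.230, edgeR adjusted p = 1.2e-05) and -3.15 in males (SE 0.210, edgeR adjusted p = 1.5e-05). Fmod, fibromodulin, which is also among the tendon and ligament markers, fell in each sex, with log2 changes of -8.55 in females (SE 0.552) and -5.80 in males (SE 0.137). Its aged counts were 11, 0 and 0 in females and 23, 27 and 26 in males, so the female size rested on 1 library. The gene that rose was Scrg1 in both sexes, named after its values were seen, by 0.88 in females (SE 0.286, edgeR adjusted p = 0.0274) and 2.04 in males (SE 0.336, edgeR adjusted p = 0.00151). In females that call was lost with library totals and in 4 of 6 fits that left out 1 library, those without 2-week replicate 2 or 3 or 65-week replicate 2 or 3.

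The hedgehog and PTHrP pathway, to which Ihh and Pth1r belong, fell in part. Of 18 genes tested 14 fell in females and 13 in males, and none rose, with medians of -1.86 and -1.74. Gas1, a hedgehog co-receptor, fell in each sex, with log2 changes of -5.89 in females (SE 0.303, edgeR adjusted p = 3.6e-06) and -4.34 in males (SE 0.206, edgeR adjusted p = 3.3e-06). Gli2, a transcription factor of the pathway, fell in each sex, with log2 changes of -3.61 in females (SE 0.281) and -4.58 in males (SE 0.322). Gnas, the stimulatory G protein through which Pth1r signals, was at -0.17 in females (SE 0.0668, edgeR adjusted p = 0.052) and -0.23 in males (SE 0.0945, edgeR adjusted p = 0.0732). Ptch1, Gli1 and Pthlh were singled out after their values were seen. Ptch1, the hedgehog receptor and a target of the pathway, fell in each sex, with log2 changes of -0.79 in females (SE 0.156, edgeR adjusted p = 0.0028) and -0.89 in males (SE 0.168, edgeR adjusted p = 0.00286), and Gli1, another target, fell too, with -3.38 in females (SE 0.668, edgeR adjusted p = 0.00291) and -3.44 in males (SE 0.583, edgeR adjusted p = 0.00173). Pthlh, the gene of PTHrP, had 0 to 4 counts in each of the 12 libraries, so the transcript of this ligand of Pth1r was at the limit of detection in these libraries.

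The regulators of chondrocytes were called in both directions. Of 15 tested in females 7 rose and 5 fell, and of 14 tested in males 4 rose and 5 fell, where about as many genes were called in each direction over all genes tested (30.2% higher and 29.5% lower in females, 27.0% and 28.5% in males). Sox6, a partner of Sox9 on cartilage genes that erythroid cells also express, rose by 0.76 in females (SE 0.176, edgeR adjusted p = 0.00627) and by 1.03 in males (SE 0.235, edgeR adjusted p = 0.00727), while Sox9 fell. Gdf5, a growth factor of joints and cartilage, fell in each sex, with log2 changes of -4.77 in females (SE 0.779, edgeR adjusted p = 0.00107) and -5.89 in males (SE 0.706, edgeR adjusted p = 0.000298). Its aged counts were 0, 4 and 0 in females and 2, 0 and 0 in males, so each size rested on 1 aged library near the floor. Among 12 tested proteases of cartilage matrix and their inhibitors, 12 fell in females and 10 in males. Mmp9, a gelatinase that neutrophils and osteoclasts also make and the list's most abundant gene, fell in females, with a log2 change of -0.98 (SE 0.134, edgeR adjusted p = 0.000424), and was at -0.39 in males (SE 0.193, edgeR adjusted p = 0.124), which was not called. Adamts4, which cleaves aggrecan, fell in each sex, with log2 changes of -4.45 in females (SE 0.389, edgeR adjusted p = 3.7e-05) and -5.94 in males (SE 0.259, edgeR adjusted p = 2.2e-06). Mmp13, the collagenase of enlarged chondrocytes and osteoblasts, fell in each sex, with log2 changes of -5.59 in females (SE 0.384) and -5.86 in males (SE 0.156). Between the sexes, edgeR called 0 of the 67 genes of these 5 lists tested at 2 weeks, where 12 had an unadjusted p under 0.05 and DESeq2 called 4, Col10a1, Col27a1, Hhip and Runx3. Over all 15081 genes tested there, 2683 had an unadjusted p under 0.05 and DESeq2 called 447. At 65 weeks edgeR called 0 of 50, where 10 had an unadjusted p under 0.05 and DESeq2 called 2, Mmp9 and Timp2, beside 1479 and 399 of all 14287 genes. Col27a1, Hhip, Runx3 and Timp2 are named after their values were seen.

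**Figure D4:**
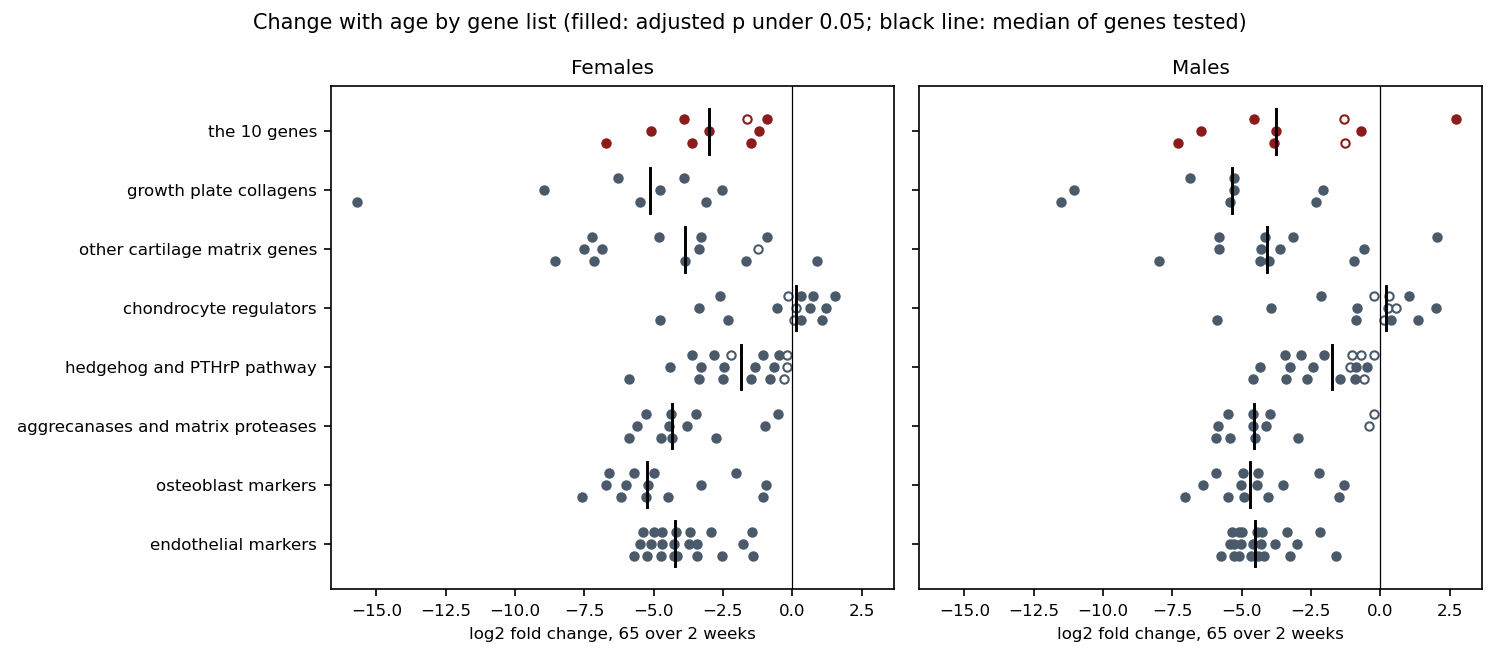
Log2 fold change from 2 to 65 weeks of every gene tested in each list, in females and males, with filled circles for an adjusted p under 0.05 and a black line at each list's median. The collagens, proteases, osteoblast markers and endothelial markers lie almost wholly below 0, and the chondrocyte regulators lie on both sides of it with medians of 0.15 in females and 0.21 in males.

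Markers of several other cell types moved with the same contrast. All 22 endothelial markers, 14 osteoblast markers, 8 adipocyte and stromal markers and 9 megakaryocyte markers fell in each sex. Neutrophil markers rose, 9 of 10 in females and 10 of 10 in males, as did 6 of 8 B cell markers in each sex. Of 8 erythroid markers 3 rose in females and 2 in males and none fell, beside 30.2% and 27.0% of all genes called higher. Of 9 housekeeping genes 5 rose and 2 fell in females and 3 rose and 2 fell in males, and their summed level stayed between 8726 and 11610 CPM in the 12 libraries. Of 9 synovial and superficial zone markers tested 4 fell in females and 5 in males, and 2 in females rose, Creb5 and Thy1, which are named after their values were seen; Erg in this list is an endothelial marker too. The part of these cells in the levels of the 10 genes was not tested.

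The genes whose pattern over the 12 libraries was most like that of Acan were Cdh5, Col4a1, Col4a2, Adam12 and Kdr, by the root mean square difference between centred log2(CPM + 0.5) values among 14023 protein-coding genes. That difference was 0.259 for Cdh5, the cadherin of endothelial junctions, and 0.322 for Kdr, a VEGF receptor. Aged Acan levels were only 0 to 0.528 CPM, so the added 0.5 shrinks the fall of Acan on this scale. The edgeR log2 changes with age were -6.72 in females and -7.29 in males for Acan. For Cdh5 they were -5.50 and -5.74, so the likeness is not one of size. Cdh5 had a mean of 590 CPM in young and 11.8 CPM in aged females and of 737 and 12.7 CPM in males. For Prg4 the nearest were Scara5, Atp6v0d2, Shisa3, Ildr2 and Trim29, at greater distances of 0.713 to 0.838. Scara5, a scavenger receptor of stromal cells, stood at 1.62 and 1.52 CPM in young and aged females and at 2.12 and 6.05 CPM in young and aged males. Atp6v0d2, a proton pump subunit of osteoclasts, stood at 37.3 ± 4.17 and 32.2 ± 11 CPM in young and aged females and at 41.7 ± 1.94 and 101 ± 35.4 CPM in young and aged males (SD, n = 3). These are likenesses of pattern in the same 12 libraries, with no test.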

How the data were processed

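The 12 libraries were grouped by the sex and age in their labels. RNA was prepared with a TruSeq Total RNA kit and sequenced as 100-nucleotide paired reads; the labels call the molecule polyA RNA. The deposited values are raw counts of reads per Ensembl gene, made by the authors. The study's methods name STAR, featureCounts and GRCm39, whereas the submitters' processing notes name TopHat2, HTSeq and mm9, and the table itself does not say which applies. Coordinates and exon lengths were looked up by identifier in GENCODE M39 (31052 of 37620 identifiers found), and promoters are from RefSeq on GRCm38.p6. Strandedness of the counting is not given in the sources used here, so reads of a gene and an overlapping antisense gene cannot be told apart.

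Genes were filtered with filterByExpr (minimum count 10), scaled by TMM and tested with edgeR 4.0.16 (quasi-likelihood F test) in R 4.3.3, on only the groups compared, with Benjamini-Hochberg adjustment over all genes tested and a threshold of 0.05; the age by sex term used all 12 libraries. SE is the absolute log2 fold change divided by the square root of F. CPM used library totals. Pooled ratios carry 95% exact binomial intervals, and a count of 0 allows up to 3 counts; both cover counting error only. DESeq2 1.42.0, other scalings and filters, leave-one-out fits and the replicate block were alternatives. Of each list, the 2 tested genes of highest mean CPM and the called gene of largest change in each sex could be named, and the 5 nearest patterns to Acan and to Prg4; others are marked as named after their values were seen. The fits were tested on simulated counts. Libraries of 1 group differed by more than sampling noise. The genes, lists and tests were chosen with earlier results of these data known.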

Additional observations from a re-analysis of the deposited data

Results flagged for a closer look

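The sex difference of Prg4 at 65 weeks, minus that at 2 weeks, was a log2 difference of 4.26 (SE 0.507, edgeR adjusted p = 0.0352), a test of whether the sex difference changed with age. By edgeR with all 12 libraries Prg4 was the only gene of 15747 called for this term. DESeq2 called 394 genes, and edgeR 750 without male 65-week replicate 3. The Prg4 call was lost in 8 of 12 fits that each left out 1 library, where the highest edgeR adjusted p was 0.190, and in 1 other alternative given with the processing. Prg4 was higher in 3 of 3 aged male libraries than in any aged female library.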

How the results depend on the processing

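The directions of the 9 genes tested with age held under every alternative in which they were tested; Ihh was fitted only without the filter. The calls of Acan, Pth1r, Sox9, Matn1 and Matn3 held in both sexes, as did those of Prg4 in males with age and between the sexes at 65 weeks, with 4.22 to 4.52 on the log2 scale over the fits that left out 1 library. Members called with age were 5 to 8 in females when 1 library was left out, beside 7434 to 8757 of all genes. The 5 were without female 2-week replicate 2, where 8100 of all 15423 genes tested were called. In males 6 to 8 members were called, beside 6450 to 9564 of all genes. The Prg4 sex difference at 2 weeks had no fixed sign: -0.11 without female 2-week replicate 3 and -0.18 without male 2-week replicate 3, in a range of -0.18 to 0.52. Over all genes, counts between the sexes depended most on the tool and on single libraries, and the cause was not tested. At 2 weeks 5 genes were called, but 447 by DESeq2, 8 in 1 model of all 12 libraries and 5 to 11 without 1 library (11 without female replicate 2). At 65 weeks 6 were called, but 399 by DESeq2, 10 with library totals, 105 without the filter, 254 in 1 model of all 12 libraries and 5 to 830 without 1 library (830 without male replicate 3, 15 without male replicate 2). For the age by sex term 1 was called, but 394 by DESeq2, 7 without the filter and 0 to 750 without 1 library (750 without male 65-week replicate 3). Of the 10 genes, 0 to 1 were called for that term when 1 library was left out.

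The replicate numbers did not pair the libraries: same-numbered libraries of different groups deviated with correlations of -0.521 to 0.214. With the replicate number as a block, 8269 genes were called with age in females, 7593 in males, 5 between the sexes at 2 weeks, 7 at 65 weeks and 0 for the age by sex term, where Prg4 then had a value of 4.25 (edgeR adjusted p = 0.261) and 0 of the 10 genes were called; the call of Scrg1 in aged females was lost too. CPM on TMM effective library sizes moved each of the 40 group means of the 10 genes by less than 1 SD. Depth limits Sox9, Matn3 and Ihh, whose aged libraries hold 0 to 6 counts each.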
